A study of Homo sapiens with 18 samples.

Results

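Cells in which NOTCH1 signalling was switched on were compared with cells in which Notch-driven transcription was blocked, both after IL-4. The comparison took the libraries titled NIC1 with IL-4 and DNMAML with IL-4 from each of 3 numbered experiments, which are 6 of the 18 libraries of the series. The cells were THP-1, a human line established from a monocytic leukaemia. They carried 1 of 3 MSCV retroviral vectors with GFP: IRES, the vector with no added gene, NIC1, a MYC-tagged intracellular domain of NOTCH1, or DNMAML, a dominant-negative Mastermind-like protein. GFP-positive cells were sorted, and every group received PMA, a phorbol ester that gives these cells macrophage-like features, at 5 ng/ml for 48 h. The NIC1, DNMAML and IRES groups with IL-4 then received 20 ng/ml of the cytokine for 3 h, and the groups without IL-4 did not. Each of the 6 groups had 3 libraries. The line is a single leukaemia, the vectors express their inserts without regulation by the cell, and the labels do not say whether an experiment number stands for a separate transduction or culture, so the spread behind each p-value is that of libraries and may be partly technical.

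Notch receptors are cut after they bind a ligand on a neighbouring cell, and the freed intracellular domain enters the nucleus, where it joins the DNA-binding protein RBPJ and a Mastermind-like co-activator. The complex turns on target genes such as the HES and HEY repressors. NIC1 supplies the freed domain without a ligand, and a dominant-negative Mastermind occupies the complex without recruiting co-activators. IL-4 acts through its receptor chains and the transcription factor STAT6 and drives macrophages towards alternative activation.

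The 18 libraries held 12410668 to 15099788 reads counted in genes, and 15037 genes were tested. DNMAML with IL-4 replicate 3 stood apart within the comparison, with 25322 genes detected against 21114 to 21524 in the other 5 libraries and 30.9% of its reads in entries that name no gene. It alone held counts of 3421 genes, with a median count of 1, and none of these genes was among those tested.

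HES1 and HES4, which encode transcriptional repressors of the hairy and enhancer of split family, were higher in NIC1 than in DNMAML, and HES1 was not called when the experiment block was left out (edgeR adjusted p = 0.0603). Their promoters are shown with those of HEYL and HES6, family members that were tested and not called, because the core of the RBPJ binding site can be read in 3 of the 4. Each stretch runs from 250 bases before the gene start to 50 after it, from RefSeq on GRCh38.p14, and capitals mark TGGGAA or its reverse complement TTCCCA. The regions were chr3:194135898-194136197 (plus strand) for HES1, chr1:1000048-1000347 (minus strand) for HES4, chr1:39639594-39639893 (minus strand) for HEYL and chr2:238239989-238240288 (minus strand) for HES6.
HES1: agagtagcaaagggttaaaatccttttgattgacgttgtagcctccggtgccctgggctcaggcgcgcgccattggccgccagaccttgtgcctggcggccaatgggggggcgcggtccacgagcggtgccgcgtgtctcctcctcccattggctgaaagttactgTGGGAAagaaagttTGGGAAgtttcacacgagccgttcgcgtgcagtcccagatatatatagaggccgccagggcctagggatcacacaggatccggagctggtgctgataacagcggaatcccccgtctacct
HES4: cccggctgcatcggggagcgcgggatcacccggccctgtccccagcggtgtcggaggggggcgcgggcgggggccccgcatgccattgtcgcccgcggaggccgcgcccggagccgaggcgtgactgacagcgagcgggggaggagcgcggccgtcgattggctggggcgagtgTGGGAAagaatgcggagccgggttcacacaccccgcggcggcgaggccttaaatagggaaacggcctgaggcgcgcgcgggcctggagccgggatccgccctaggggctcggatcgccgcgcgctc
HEYL: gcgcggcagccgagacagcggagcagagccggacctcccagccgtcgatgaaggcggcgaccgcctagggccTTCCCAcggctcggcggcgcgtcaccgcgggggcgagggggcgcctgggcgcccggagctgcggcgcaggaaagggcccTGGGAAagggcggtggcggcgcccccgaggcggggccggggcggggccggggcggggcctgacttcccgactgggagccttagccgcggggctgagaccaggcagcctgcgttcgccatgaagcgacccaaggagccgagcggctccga
HES6: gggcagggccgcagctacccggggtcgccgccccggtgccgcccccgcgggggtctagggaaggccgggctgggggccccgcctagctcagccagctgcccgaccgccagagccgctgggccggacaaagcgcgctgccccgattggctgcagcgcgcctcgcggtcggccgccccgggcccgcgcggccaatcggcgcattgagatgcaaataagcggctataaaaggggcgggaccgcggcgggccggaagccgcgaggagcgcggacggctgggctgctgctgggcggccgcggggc
In HES1 the 6 letters start 84 and 70 bases upstream of the gene start, and in HES4 they start 76 bases upstream. HEYL held TTCCCA 178 and TGGGAA 99 bases upstream, and HES6 held neither. Either form was found in 24.3% of the 27305 promoters in the table, in 5 of 8 HES and HEY promoters and in 0 of 10 promoters of the other Notch target genes. No promoter was available for HEY1 of the first list or for DTX1, MYC and CCND1 of the second, so HEY1 and DTX1, both called higher, are not covered. Among tested genes with a promoter in the table, 11093 of 15037, the share was 21.8%. It was 19.7% of the promoters of genes higher in NIC1 and 21.9% of those of genes lower in NIC1. A match describes letters in the window and does not show binding.

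With IL-4, 1893 genes differed between NIC1 and DNMAML (edgeR quasi-likelihood F test with the experiment number as a block, Benjamini-Hochberg adjusted p under 0.05), which is 12.6% of those tested. Of these, 1097 were higher in NIC1 (7.3%) and 796 were lower (5.29%). Most differences were modest. The median log2 change was 0.50 for genes higher in NIC1 and -0.45 for genes lower, and 221 genes were higher and 87 lower by more than 1 on the log2 scale. The 3 NIC1 and 3 DNMAML libraries did not overlap in CPM (counts per 1000000 reads, on the scaled library size) for 687 of the genes called higher and 450 of those called lower. Over all genes tested the libraries did not overlap in 8.52% with NIC1 higher and in 7.16% with NIC1 lower. Of the genes called, 1755 were among the 12923 protein-coding genes tested. Without the block 216 genes were called, all of them among the 1893, with 162 higher and 54 lower. Of the genes named here, the higher calls of NOTCH1, HES4, HEY1, DTX1, CD3D, CD3G, CD1A, CD1C, LTB, SAMD4A, SETBP1, KRT3, PPP1R3A, MAF, CD36, ITGB7, MMP7, SPP1, NFKBIZ, PTPN6, PRTN3, BCL2A1, ARNT2 and BCL7A held without the block. The lower calls of MAML1, MMP2, FBLN2, KIF26A, KRT18, ITGAM, SPARC and NFKBIE held as well. The count with the block fell to 1166 without NIC1 replicate 1. It was 1386 without DNMAML replicate 3. A limma voom fit that treated libraries of the same construct and experiment as 1 culture called 1889, and it differs from the main fit in its test as well.

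**Figure D1:**
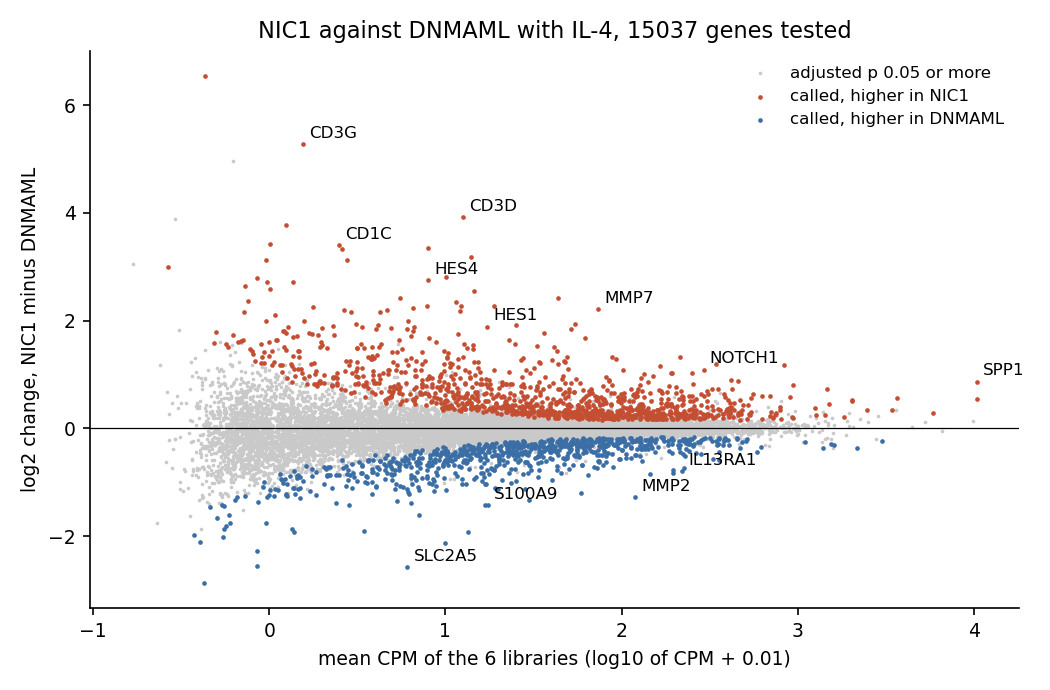
Log2 change between NIC1 and DNMAML with IL-4 (vertical) against the mean CPM of the 6 libraries (horizontal, log10 of CPM + 0.01), 1 point per gene tested. The 1097 genes called higher in NIC1 reach further from 0 than the 796 called lower, with CD3G (5.27) and CD3D (3.92) above and SLC2A5 (-2.57) below.

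The vector genes were checked first. NOTCH1 (9:136494433-136545786, minus strand), which also gives the insert of the NIC1 vector, was measured at 368, 453 and 367 CPM in NIC1 libraries and at 155, 237 and 171 CPM in DNMAML libraries of experiments 1, 2 and 3. Every NIC1 library lay above every DNMAML library (log2 change 1.09 ± 0.055, SE; edgeR adjusted p = 9.1e-11). MAML1 (5:179732850-179777286, plus strand), a Mastermind-like co-activator of the complex, was measured at 83.0, 83.6 and 92.9 CPM in NIC1 and 125, 116 and 102 CPM in DNMAML libraries. The groups did not overlap, with DNMAML replicate 3 nearest to NIC1 (-0.40 ± 0.076, edgeR adjusted p = 0.000908), and without that library the log2 change was -0.53. Counts of both genes include any vector reads that align to them.

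Of the 9 HES and HEY genes 5 were tested, and 3 were higher in NIC1 with none lower, a share of 60% against 7.3% of all genes. HES4 (1:998962-1000172) was measured at 12.6, 15.1 and 14.1 CPM in NIC1 and 2.04, 2.17 and 1.99 CPM in DNMAML libraries, a log2 change of 2.75 ± 0.177 (edgeR adjusted p = 3.82e-09). The 3 DNMAML values were close to each other and far below the lowest NIC1 value. HES1 (3:194136145-194138732) was measured at 23.8, 32.5 and 24.6 CPM in NIC1 and 4.84, 12.1 and 5.90 CPM in DNMAML libraries (1.89 ± 0.185, edgeR adjusted p = 3.76e-06). Experiment 2 was highest in both groups, and no library overlapped. HEY1, a repressor of the related HEY family, was measured at 6.22, 11.7 and 9.53 CPM against 3.00, 3.96 and 3.92 CPM (1.31 ± 0.181, edgeR adjusted p = 3.17e-05). HEYL (0.05, adjusted p = 0.922) and HES6 (-0.05, adjusted p = 0.876) were not called. The other members were below the filter, with 0 and 1 counts over the NIC1 and DNMAML libraries for HES5, 1 and 2 for HEY2, 8 and 4 for HES2 and 17 and 19 for HES7.

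Among 11 tested genes of a second list of Notch targets, DTX1 and NOTCH3 were higher and PTCRA was lower, 18.2% and 9.09% of the list against 7.3% and 5.29% of all genes. DTX1 (12:113056709-113098028) encodes a ubiquitin ligase of the pathway and was measured at 2.81, 7.56 and 3.72 CPM in NIC1 and 0.341, 0.621 and 0.385 CPM in DNMAML libraries (3.33 ± 0.271, edgeR adjusted p = 5.12e-08). NOTCH3, a receptor and target at once, was measured at 206, 311 and 262 CPM against 105, 170 and 112 CPM (1.02 ± 0.125, edgeR adjusted p = 9.23e-05). In both genes every NIC1 library was above every DNMAML library. PTCRA, the pre-T-cell receptor alpha chain, was lower in NIC1 (-0.87 ± 0.256, edgeR adjusted p = 0.0279), and its call was lost without replicate 1 of either construct or without DNMAML replicate 3, where the adjusted p reached 0.207. NRARP, MYC and CCND1 were not called. NRARP, a feedback inhibitor, had a log2 change of 0.24 (adjusted p = 0.499), MYC of -0.05 (0.869) and CCND1, a cyclin, of 0.59 (0.073).

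Of 11 Notch receptors and ligands, NOTCH1, NOTCH3 and DLK2 were higher and DLK1 was lower, 27.3% and 9.09% of the list against 7.3% and 5.29% of all genes. DLK1, a non-canonical ligand, was measured at 187, 332 and 192 CPM in NIC1 and 274, 423 and 277 CPM in DNMAML libraries (-0.47 ± 0.0606, edgeR adjusted p = 1.28e-05). Its groups overlapped across experiments, since experiment 2 was highest in both, while NIC1 was the lower of the pair within each experiment. DLK2 (0.85 ± 0.226, edgeR adjusted p = 0.0149) lost its call without NIC1 replicates 2 or 3 or DNMAML replicates 1 or 3, where the adjusted p reached 0.0778. Of 19 genes of the nuclear complex, none was higher, and MAML1 and MAML3 (-0.49 ± 0.0751, edgeR adjusted p = 0.000102) were lower (10.5% of the list), with RBPJ at 0.05 (adjusted p = 0.688). The shares of these lists count the vector genes NOTCH1 and MAML1, whose reads may come from the vectors, so part of them may be set by the constructs. Of 23 tested genes of receptor processing and trafficking, LFNG, DTX4 and NUMB were higher (13% of the list). LFNG, a glycosyltransferase that modifies Notch receptors, was measured at 15.8, 32.3 and 13.1 CPM in NIC1 and 5.93, 13 and 6.87 CPM in DNMAML libraries (1.23 ± 0.157, edgeR adjusted p = 2.58e-05). Its groups were separated by little, the lowest NIC1 library lying just above the highest DNMAML library. DTX4, of the same family as DTX1, was higher by 1.19 ± 0.195 (edgeR adjusted p = 0.000227) and the Notch inhibitor NUMB by 0.41 ± 0.0881 (adjusted p = 0.00386).

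**Figure D2:**
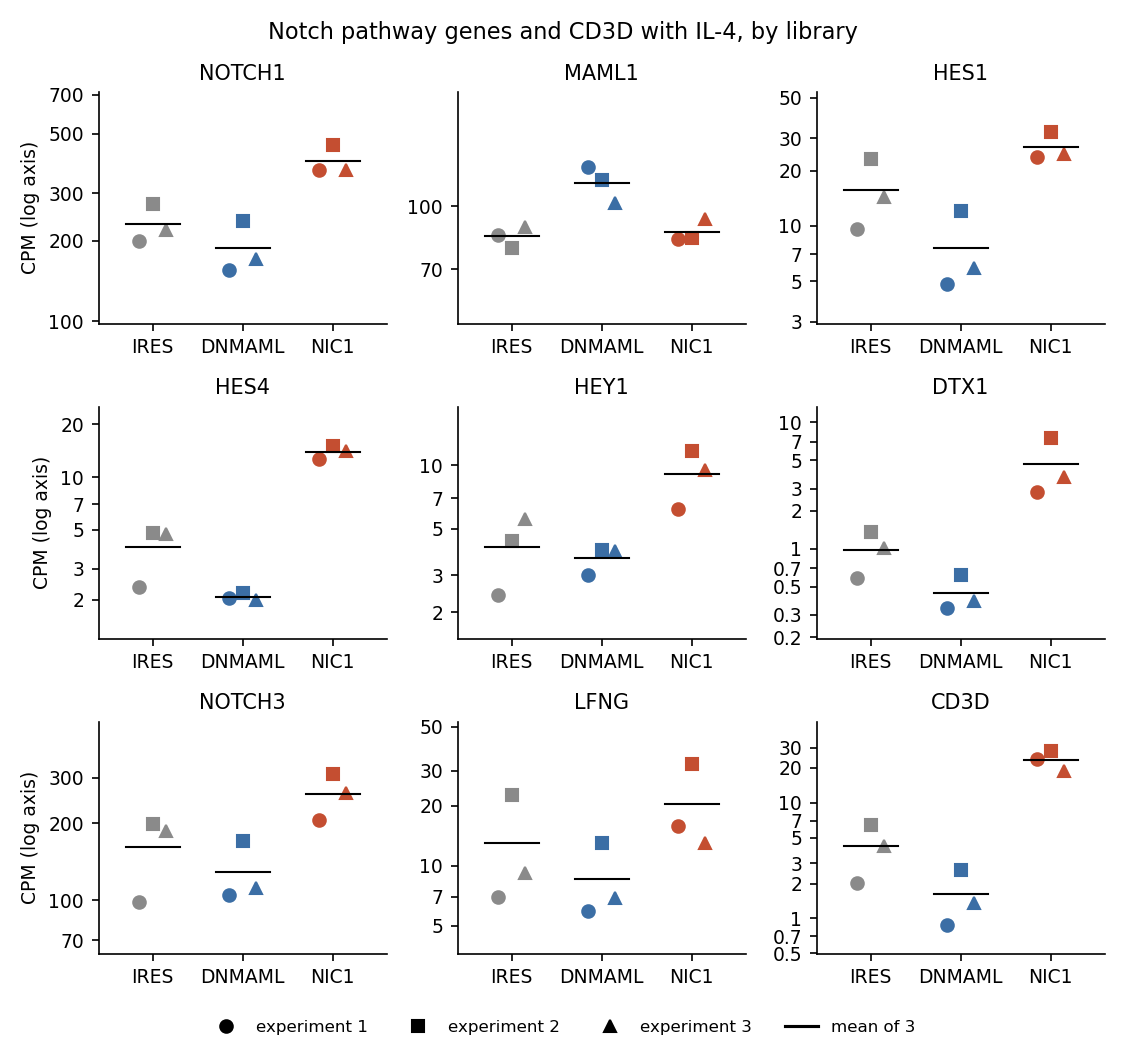
CPM on a log axis of 8 Notch pathway genes and CD3D in each IL-4 library of IRES, DNMAML and NIC1 cells, with the mean of 3 as a line and the marker shape giving the experiment. For all 9 genes the NIC1 and DNMAML libraries do not overlap, and MAML1 is the gene with DNMAML above NIC1.

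IRES libraries with IL-4 give the level without an insert. HES1 was measured there at 9.59, 23.1 and 14.4 CPM, and its log2 change from IRES was 0.84 ± 0.168 in NIC1 (edgeR adjusted p = 0.00632) and -1.05 ± 0.195 in DNMAML (adjusted p = 0.0516). HES4 differed by 1.84 ± 0.159 (adjusted p = 7.16e-07) and -0.91 ± 0.211 (adjusted p = 0.101). HEY1 differed by 1.15 ± 0.179 (adjusted p = 0.000373) and -0.16 ± 0.201 (adjusted p = 0.916). Against IRES with IL-4, 818 genes were called in NIC1 (5.44%) and 14 in DNMAML (0.0931%), and both comparisons use the same IRES libraries. Among the genes named by rule, 9 were called in DNMAML against IRES. The scavenger receptor gene CD36 was 0.70 ± 0.123 from IRES in NIC1 and -0.94 ± 0.14 in DNMAML (edgeR adjusted p = 0.00165 and 0.0089). The transcription factor gene MAF stood at 1.01 ± 0.128 and -1.17 ± 0.156 (adjusted p = 4.39e-05 and 0.00186), and the matrilysin gene MMP7 at 1.26 ± 0.112 and -0.95 ± 0.124 (adjusted p = 6.99e-06 and 0.0054). For CD36, MAF and MMP7 the IRES level thus lay between those of the 2 constructs. The gelatinase gene MMP2 at -0.86 and 0.42 and IL13RA1 at -0.43 and 0.36 had the opposite signs. The others were NOTCH1 (0.79 and -0.31), KRT3 (1.55 and -1.64), MAML1 (0.04 and 0.44) and FOS (0.04 and 0.44).

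The 12 highest changes with no overlap between libraries and at least 2 CPM in a group were led by genes of the CD3 complex of the T cell receptor. CD3D (11:118338954-118342744, minus strand) was measured at 23.9, 28.0 and 18.8 CPM in NIC1 and 0.885, 2.64 and 1.35 CPM in DNMAML libraries (3.92 ± 0.347, edgeR adjusted p = 6.63e-06). CD3G, its neighbour (11:118344344-118355161, plus strand), was measured at 3.01, 3.23 and 2.83 CPM against 0.0681, 0 and 0.128 CPM. With 127 counts in NIC1 and 3 in DNMAML libraries, the ratio of its levels was 43.5 with an exact 95% interval of 14.6 to 214, which covers counting error only (edgeR adjusted p = 1.4e-06). The promoters of CD1C, CD1A and NOTCH1, all called higher in NIC1, held neither TGGGAA nor TTCCCA, and none was available for CD3G. The CD3D promoter (chr11:118342656-118342955, minus strand, RefSeq on GRCh38.p14) held TTCCCA 63 bases upstream of the gene start and is shown because CD3D had the second highest change.
CD3D: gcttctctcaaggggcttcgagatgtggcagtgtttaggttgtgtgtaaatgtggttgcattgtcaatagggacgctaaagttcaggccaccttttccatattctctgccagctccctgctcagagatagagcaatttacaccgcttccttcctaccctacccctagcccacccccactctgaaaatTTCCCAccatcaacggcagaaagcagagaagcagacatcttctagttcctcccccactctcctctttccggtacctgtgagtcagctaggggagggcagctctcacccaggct
Of 17 T cell marker genes 8 were tested, and 4 were higher (50% against 7.3% of all genes) and none lower: CD3G, CD3D, the adaptor LAT (1.11 ± 0.263, edgeR adjusted p = 0.00643) and TRAC, the constant region of the alpha chain (0.26 ± 0.0619, adjusted p = 0.00696). The LAT call was lost without NIC1 replicate 2 (adjusted p = 0.0996). CD3G passed the filter on low counts only through NIC1 libraries, and CD3G and CD3D also led the highest changes above. The share of 50% is therefore partly fixed by these genes and is no separate result. CD2, CD3E, CD5, CD8A, CD8B and CD247 had between 0 and 4 counts over the 3 libraries of either group. The summed level of the list was 122 to 152 CPM in NIC1, 81.6 to 104 CPM in DNMAML and 82.8 to 109 CPM in IRES libraries with IL-4. Most of each sum was TRAC, with means of 96.3 CPM in NIC1, 80.6 CPM in DNMAML and 82.1 CPM in IRES. The median member lay at 0.147 to 0.334 CPM in NIC1 and 0 to 0.128 CPM in DNMAML libraries. Sums of 10 B cell markers were 40.3 to 48.7 CPM in NIC1 and 51.4 to 55.2 CPM in DNMAML libraries, those of 11 fibroblast and epithelial markers 108 to 177 and 125 to 145 CPM, and those of 13 erythroid and megakaryocyte markers 16.2 to 18.4 and 22.5 to 24.4 CPM. The collagen gene COL1A1 alone averaged 101 CPM in NIC1 and 101 CPM in DNMAML libraries. Of 7 tested fibroblast and epithelial markers none was called higher and 2 were lower in NIC1 (28.6% of the list, against 5.29% of all genes). The lower ones were the keratin genes KRT18 (log2 change -1.13 ± 0.196, edgeR adjusted p = 0.00041) and KRT8 (-0.61 ± 0.185, adjusted p = 0.0318). KRT8 lost its call without NIC1 replicates 1 or 3 or DNMAML replicate 1, where the adjusted p reached 0.281. The collagen gene COL3A1, with 49 counts in NIC1 and 1 in DNMAML libraries, and DCN, with 22 and 1, lay in the other direction and were not called. The part of such markers in other results was not tested. In bulk libraries more cells of a type and more RNA per cell cannot be told apart.

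CD1 molecules, which present lipid antigens to T cells, were higher in NIC1 throughout. CD1C (1:158289786-158293630) was measured at 6.76, 3.16 and 3.72 CPM in NIC1 and 0.272, 0.621 and 0.385 CPM in DNMAML libraries (3.40 ± 0.344, edgeR adjusted p = 9.86e-07). CD1A was measured at 2.74, 3.23 and 2.68 CPM against 0.409, 1.16 and 0.321 CPM (2.25 ± 0.385, edgeR adjusted p = 0.000367). Neither gene had overlapping libraries. CD1D was higher by 0.63 ± 0.149 (edgeR adjusted p = 0.00625), a call lost without NIC1 replicate 2 or DNMAML replicate 2, where the adjusted p reached 0.0603. All 3 members tested were therefore higher (100% of those tested, against 7.3% of all genes), and CD1E with 26 against 2 counts and CD1B with 7 against 1 were below the filter.

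The other highest changes covered several functions. LTB, lymphotoxin beta, was measured at 22.4, 32.7 and 19.6 CPM in NIC1 and 3.88, 5.12 and 3.66 CPM in DNMAML libraries (2.56 ± 0.279, edgeR adjusted p = 3.81e-05). CSF2, which encodes the growth factor GM-CSF, was measured at 2.34, 3.30 and 1.34 CPM against 0, 0.853 and 0.257 CPM (2.72 ± 0.423, adjusted p = 0.000127). Both genes were chosen for no overlap of libraries, and the size of the CSF2 change rests on few counts in DNMAML. SETBP1, a SET-binding nuclear protein, was measured at 13, 15.0 and 14.8 CPM against 0.477, 3.18 and 1.09 CPM (3.34 ± 0.413, edgeR adjusted p = 0.000104). SAMD4A, an RNA-binding regulator of translation, had a log2 change of 2.81 ± 0.198 (edgeR adjusted p = 9.2e-09). KRT3, a keratin, was higher by 3.19 ± 0.259, the ectonucleotidase gene ENTPD2 by 3.13 ± 0.322 and PPP1R3A, a glycogen-targeting subunit of protein phosphatase 1, by 3.78 ± 0.449. The sizes of the ENTPD2 and PPP1R3A changes also rest on few counts, 23 and 7 over the DNMAML libraries, against 15 for CSF2. DNMAML libraries of experiment 2 were above those of experiments 1 and 3 in SETBP1, SAMD4A, KRT3 and ENTPD2.

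The 12 lowest changes, chosen by the same rule of no overlap, were smaller in size. SLC2A5 (1:9035107-9088478, minus strand), the fructose transporter GLUT5, was measured at 2.27, 0.881 and 2.01 CPM in NIC1 and 17.0, 4.03 and 10.2 CPM in DNMAML libraries (-2.57 ± 0.241, edgeR adjusted p = 5.51e-07). Experiment 2 was lowest in both groups, and the groups did not overlap. PRSS8, the serine protease prostasin, was measured at 1.81, 0.881 and 1.64 CPM against 7.22, 3.03 and 6.03 CPM (-1.91 ± 0.215, adjusted p = 3.22e-06). S100A9, a subunit of calprotectin and a monocyte and neutrophil protein, was measured at 10.8, 7.42 and 9.38 CPM against 36.8, 11.7 and 28.6 CPM (-1.43 ± 0.241, adjusted p = 0.00149). The S100A9 difference was smallest in experiment 2, where both levels were lowest. AOC1, the diamine oxidase that breaks down histamine, was measured at 41.7, 24 and 41.2 CPM against 107, 51 and 89.7 CPM (-1.2 ± 0.119, edgeR adjusted p = 4.94e-06). TMEM176B, a membrane protein of myeloid cells, had a log2 change of -1.42 ± 0.154 and the matrix protein gene FBLN2 of -1.87 ± 0.335. NHSL2 (-1.93), ADAM11 (-1.38), KIF26A (-1.35), TFAP2A-AS1 (-1.23) and ARMH4 (-1.16) were the rest beside MMP2. ARMH4 lost its call without DNMAML replicate 2 (adjusted p = 0.0542). TFAP2A-AS1 is an antisense gene, and the strand setting of the counting is not given in the sources used here, so its reads cannot be told from those of an overlapping gene.

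**Figure D3:**
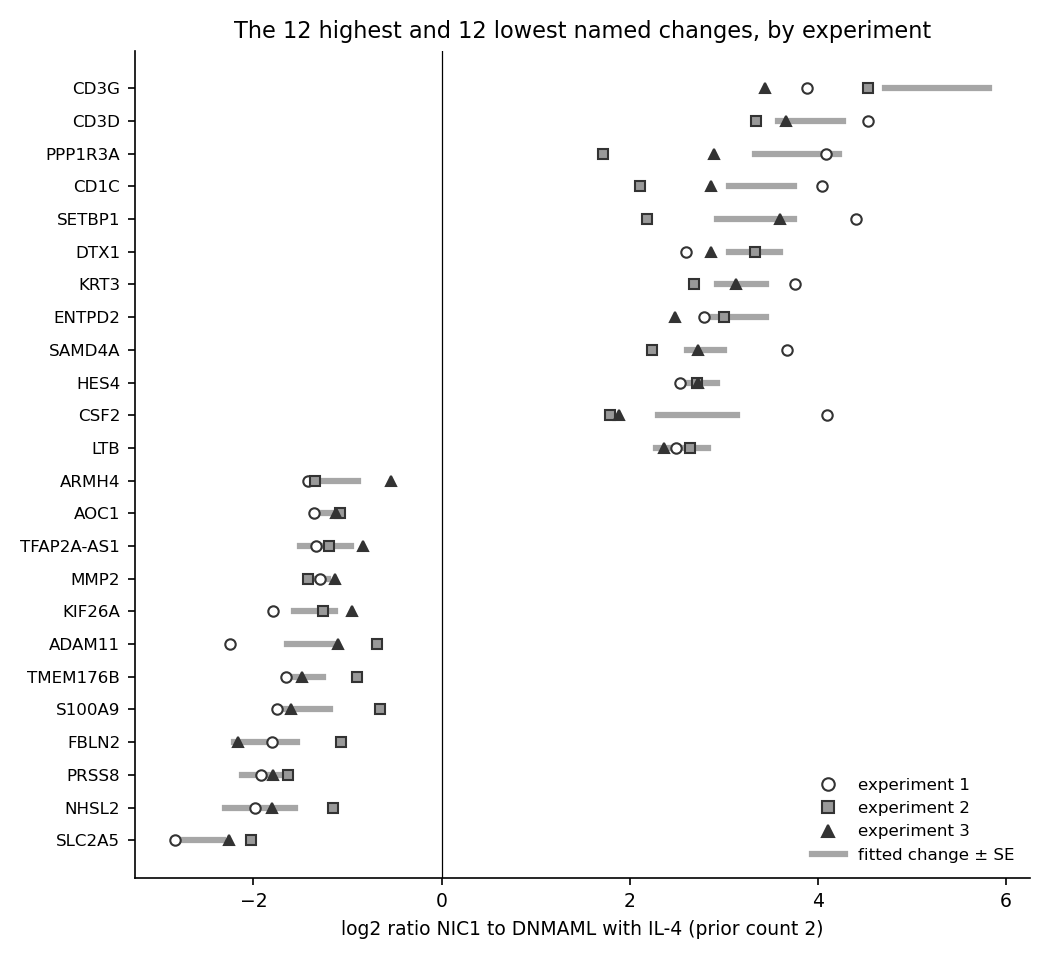
Log2 ratio of NIC1 to DNMAML with IL-4 in each experiment (points, prior count 2) and the fitted change with its SE (grey bar) for the 12 highest and 12 lowest genes. The genes were chosen for no overlap between libraries, which puts all 3 experiments of a gene on the same side of 0, and the points of CD3G fall below its bar because the prior count pulls ratios of few counts towards 0.

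Genes of macrophage identity moved in both directions. Of 21 tested, 4 were higher and 7 lower in NIC1 (19.0% and 33.3% of the list, against 7.3% and 5.29% of all genes). The 24 genes of the list summed to 2130 to 2380 CPM in NIC1 and 2130 to 2470 CPM in DNMAML libraries. All of them had counts, but 3 in NIC1 and 2 in DNMAML had a mean under 0.5 CPM. CD68 had 34 counts in NIC1 and 37 in DNMAML libraries. MAF (16:79585843-79600714, minus strand), a transcription factor of macrophages, was measured at 16.4, 18.7 and 24.6 CPM in NIC1 and 3.06, 4.73 and 5.39 CPM in DNMAML libraries (2.18 ± 0.144, edgeR adjusted p = 4.67e-09). CD36 was measured at 46.4, 23.1 and 34.8 CPM against 12.7, 9.31 and 11 CPM (1.64 ± 0.134, edgeR adjusted p = 1.63e-07). The libraries of both genes were separated. ITGAX, the integrin CD11c, was higher by 0.40 ± 0.0607 (edgeR adjusted p = 0.000105). ITGAM, the integrin CD11b, was lower, at 293, 256 and 255 CPM against 416, 422 and 354 CPM (-0.57 ± 0.0645, edgeR adjusted p = 3.49e-06). TLR2, a receptor for bacterial lipoproteins, was lower by a log2 change of -0.66 ± 0.101 (adjusted p = 0.000182). CD14, a co-receptor for lipopolysaccharide, was lower at a log2 change of -0.77 ± 0.195 (edgeR adjusted p = 0.01), which lost its call without replicate 1 of either construct or without DNMAML replicate 3 (adjusted p up to 0.0928). The count of lower members was 4 without NIC1 replicate 1 and 4 without DNMAML replicate 1. Of 16 tested integrin genes, 8 were higher (50%, against 7.3% of all genes) and 1, ITGAM, was lower (6.25%, near the 5.29% of all genes). ITGB7 was measured at 555, 516 and 508 CPM against 320, 314 and 319 CPM (0.73 ± 0.0676, edgeR adjusted p = 3.1e-07), with hardly any spread within either group. ITGB5 was higher by 0.98 ± 0.18 (adjusted p = 0.00385) and ITGA3 by 0.66 ± 0.096 (adjusted p = 0.000162), and 5 integrin genes were higher without NIC1 replicate 1 or without DNMAML replicate 3.

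Matrix genes were called in both directions, with 7 of 19 higher (36.8%) and 4 lower (21.1%), against 7.3% and 5.29% of all genes. MMP7 (11:102520508-102530753, minus strand) was measured at 164, 66.1 and 133 CPM in NIC1 and 29.9, 15.7 and 31.4 CPM in DNMAML libraries (2.21 ± 0.12, edgeR adjusted p = 9.2e-09). MMP2 (16:55389700-55506691) was measured at 63.1, 67.0 and 78.8 CPM against 154, 180 and 172 CPM (-1.28 ± 0.0758, adjusted p = 1.37e-09). The 2 metalloproteinase genes therefore differed in opposite directions, without overlap in either. SPP1, the secreted glycoprotein osteopontin, was measured at 13900, 12300 and 14000 CPM in NIC1 and 6530, 7360 and 8160 CPM in DNMAML libraries (0.87 ± 0.0948, edgeR adjusted p = 2.33e-06). SPARC, a matricellular protein, was lower at a log2 change of -0.53 ± 0.081 (edgeR adjusted p = 0.000108) and TIMP2, a metalloproteinase inhibitor, at -0.37 ± 0.0656 (adjusted p = 0.000451). The fibronectin gene FN1 was called lower (-0.84 ± 0.235, edgeR adjusted p = 0.0395) and, of the 6 leave-outs, kept its call in that without DNMAML replicate 3 alone (adjusted p up to 0.131 in the others). TIMP3 (0.84 ± 0.19) and VCAN (0.72 ± 0.195) also lost their calls without 3 of the 6 libraries each, NIC1 replicate 1 among them for both, with adjusted p up to 0.0618 and 0.164. The others were NIC1 replicate 2 and DNMAML replicate 3 for TIMP3, and NIC1 replicate 3 and DNMAML replicate 1 for VCAN. The count of higher matrix genes was 4 without NIC1 replicate 1.

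Immediate early genes, which respond to growth and stress signals within minutes, were higher in 10 of 19 members (52.6%, against 7.3% of all genes) and lower in 1 (5.26%, a share like the 5.29% of all genes). The list median was 0.54 against -0.0028 over all genes. DUSP1, a phosphatase of MAP kinases, was measured at 34.4, 89.9 and 43.8 CPM in NIC1 and 9.81, 26.8 and 13.2 CPM in DNMAML libraries (1.77 ± 0.149, edgeR adjusted p = 1.19e-06). EGR1, a zinc finger transcription factor, was measured at 54.4, 149 and 50.8 CPM against 8.65, 47.8 and 15.6 CPM (1.94 ± 0.252, adjusted p = 0.000375). Levels of both genes were highest in experiment 2 in each group, and the groups did not overlap. EGR3 was higher by 1.21 ± 0.163 (edgeR adjusted p = 0.000189). NR4A1, an orphan nuclear receptor, was higher by 0.97 ± 0.215 (edgeR adjusted p = 0.0112), a call lost without NIC1 replicate 2 (adjusted p = 0.0517). FOS was the member lower in NIC1, at 32.4, 24.3 and 38.0 CPM against 40.5, 38.2 and 45.9 CPM (-0.41 ± 0.0848, edgeR adjusted p = 0.00225).

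Inflammatory genes did not move together. Of 17 genes of NF-kappaB and inflammatory cytokines, 4 were higher and 3 lower (23.5% and 17.6%, against 7.3% and 5.29% of all genes). TNF was measured at 7.69, 17.2 and 4.02 CPM in NIC1 and 1.5, 5.51 and 0.899 CPM in DNMAML libraries (1.99 ± 0.432, edgeR adjusted p = 0.00882), and its call was lost without DNMAML replicate 2 (adjusted p = 0.0595). The levels overlapped across experiments and NIC1 was higher within each. NFKBIZ, an inducible nuclear regulator, was higher by 0.82 ± 0.166 (edgeR adjusted p = 0.00185), while the subunit RELB was lower at -0.34 ± 0.0547 (adjusted p = 0.000166) and the inhibitor NFKBIE at -0.39 ± 0.0683 (adjusted p = 0.000471). NFKB2 (-0.31), PTGS2 (0.75) and TRAF1 (0.34) were called too. NFKB2 kept its call in 1 leave-out, that of DNMAML replicate 2, with an adjusted p of up to 0.129 in the others. PTGS2 lost its call without NIC1 replicate 1 or DNMAML replicate 3 (up to 0.115), and TRAF1 without NIC1 replicate 1 or DNMAML replicate 2 (up to 0.107). Of 16 chemokine genes and receptors 3 were higher and 4 lower (18.8% and 25%). CCL7 was higher by 1.74 ± 0.332 (edgeR adjusted p = 0.00102) and CCL4 by 0.82 ± 0.166 (adjusted p = 0.00212), with close paralogs that can share reads of CCL4. CXCL10, an interferon-induced chemokine, was measured at 7.56, 1.25 and 7.37 CPM against 24.7, 2.41 and 37.5 CPM (-1.92 ± 0.452, adjusted p = 0.0167). Its call was lost without NIC1 replicates 1 or 3 or DNMAML replicate 3, where the adjusted p reached 0.0949. None of the 4 lower chemokine genes kept a call without NIC1 replicate 1. None of 28 interferon-stimulated genes was called by edgeR, although 27 lay below 0 with a median of -0.28. Without DNMAML replicate 3 that median was -0.14. The 6 libraries fitted alone called 5 of them lower, and the fit with culture as a random effect called 4.

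Of 25 tested genes of IL-4 receptor signalling, 4 were higher (16%, against 7.3% of all genes) and 2 lower (8%, near the 5.29% of all genes). IL13RA1 (X:118727572-118794539), which pairs with the IL-4 receptor chain in non-lymphoid cells, was measured at 182, 130 and 169 CPM in NIC1 and 348, 197 and 300 CPM in DNMAML libraries (-0.79 ± 0.0653, edgeR adjusted p = 5.7e-08). IL2RG, the common gamma chain of the other receptor type, was measured at 90.8, 152 and 95.0 CPM against 75.5, 95.4 and 64.6 CPM (0.50 ± 0.0836, adjusted p = 0.00037). IL13RA1 was separated between the groups, and IL2RG overlapped across experiments but was higher in NIC1 within each. The IL-4 receptor chain IL4R was at -0.02 (adjusted p = 0.936). The phosphatase gene PTPN6 was higher by 0.53 ± 0.0574 (edgeR adjusted p = 2.27e-06), the adaptor IRS2 by 0.43 ± 0.0734 (adjusted p = 0.000353) and STAT6 by 0.30 ± 0.0619 (adjusted p = 0.0021). STAT3 was called lower (-0.24 ± 0.0761, edgeR adjusted p = 0.043) and kept its call in 1 leave-out, that of DNMAML replicate 2, with an adjusted p of up to 0.193 in the others. The feedback inhibitors CISH (-0.17, adjusted p = 0.167) and SOCS1 (0.09, adjusted p = 0.707) were not called.

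Of 25 tested IL-4 and STAT6 response genes, 5 were higher (20%, against 7.3% of all genes) and 2 lower (8%, near 5.29%), with a median of 0.24. PPARG, a nuclear receptor of lipid metabolism, was measured at 39.3, 30.3 and 35.2 CPM in NIC1 and 27.4, 20.2 and 21.4 CPM in DNMAML libraries, without overlap (0.61 ± 0.114, edgeR adjusted p = 0.000909). FCER2, the low-affinity IgE receptor, was measured at 2.34, 2.28 and 1.56 CPM against 0.272, 1.09 and 0.578 CPM (1.69 ± 0.365, adjusted p = 0.00314), a call lost without DNMAML replicate 1 (1.13, adjusted p = 0.0631). HOMER2, a scaffold protein, was higher by 0.82 ± 0.157 (edgeR adjusted p = 0.00174) and FGL2, a fibrinogen-like protein, by 0.58 ± 0.117 (adjusted p = 0.00328). The lipoxygenase gene ALOX15 (0.47 ± 0.137, edgeR adjusted p = 0.0252) lost its call without NIC1 replicates 1 or 3 or DNMAML replicates 1 or 2, where the adjusted p reached 0.144. CLEC7A, the beta-glucan receptor dectin-1, was lower at -0.71 ± 0.115 (edgeR adjusted p = 0.00061). The hyaluronan synthase gene HAS3 (-0.55 ± 0.159, edgeR adjusted p = 0.0397) kept its call in the leave-out of DNMAML replicate 2 alone, with an adjusted p of up to 0.181 in the others. TGM2 (0.50, adjusted p = 0.344), CCL22 (0.41, 0.241) and IL1RN (0.32, 0.194), all with NIC1 libraries above DNMAML libraries, were not called. In IRES cells, whose libraries are outside the comparison, IL-4 raised 732 genes (4.87%) and lowered 628 (4.18%). Of those raised, 140 were higher in NIC1 than in DNMAML (19.1%) and 87 lower (11.9%), with a median of 0.03. Of those lowered, 146 were higher (23.2%) and 63 lower (10.0%), with a median of 0.06. All 4 shares were above those of all genes, 7.3% and 5.29%, and neither median was far from 0. Both sets were called in the same model with the same estimate of spread. A gene called easily in 1 contrast is then called more easily in the other, in either direction, so the shares are not read as a link to IL-4.

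Of 14 tested granule protease and progenitor genes, 4 were higher (28.6%) and 3 lower (21.4%), against 7.3% and 5.29% of all genes. PRTN3, the granule protease proteinase 3, was measured at 72.0, 62.9 and 65.7 CPM in NIC1 and 28.5, 26.5 and 28.9 CPM in DNMAML libraries (1.26 ± 0.122, edgeR adjusted p = 3.39e-06). GFI1, a transcriptional repressor needed for granulocyte development, was higher by 0.73 ± 0.0941 (edgeR adjusted p = 1.41e-05). The lower ones were FLT3, CFD and HOXA9, of which none kept its call in every leave-out: FLT3 lost it without NIC1 replicate 1 (adjusted p = 0.0682), CFD without replicate 3 of either construct or without DNMAML replicate 1 (up to 0.0809), and HOXA9 without any library but DNMAML replicate 2 (up to 0.148). Of 15 genes of cholesterol efflux and fatty acids, LPL, lipoprotein lipase, was higher (0.98 ± 0.196, edgeR adjusted p = 0.00169), 6.67% of the list. In the same list 5 genes were lower (33.3%), or 2 to 4 with 1 library left out. The sterol exporter gene ABCG1 was measured at 3.28, 1.10 and 2.53 CPM against 7.08, 2.09 and 6.93 CPM (-1.21 ± 0.177, adjusted p = 6.5e-05), with NIC1 lower within each experiment. Of 7 tested MHC class II genes 2 were higher and 1 lower (28.6% and 14.3%). HLA-DRA was measured at 3.34, 1.17 and 4.32 CPM in NIC1 and 1.5, 0.233 and 1.16 CPM in DNMAML libraries (1.60 ± 0.341, edgeR adjusted p = 0.00286). HLA-DRB1, whose reads can be shared with close paralogs, was higher by 1.43 ± 0.356, a call lost without NIC1 replicate 3 or DNMAML replicate 3 (adjusted p up to 0.188). HLA-DMB, which helps load peptides, was lower at -0.63 ± 0.175 (edgeR adjusted p = 0.0196), a call lost without replicates 1 or 3 of either construct (up to 0.193). Of 14 genes of the BCL2 family 2 were higher and 3 lower (14.3% and 21.4%). BCL2A1, a survival gene, was higher by 0.62 ± 0.115 (edgeR adjusted p = 0.00102), and BMF, a death-promoting member, was lower at -0.31 ± 0.0711 (adjusted p = 0.00499). ARNT2, a partner of hypoxia factors, was measured at 9.77, 11.7 and 7.67 CPM against 1.91, 4.27 and 2.82 CPM (1.72 ± 0.244, edgeR adjusted p = 8.28e-05), without overlap. None of 26 cell cycle genes and none of 13 mitochondrially encoded genes was called by edgeR.

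**Figure D4:**
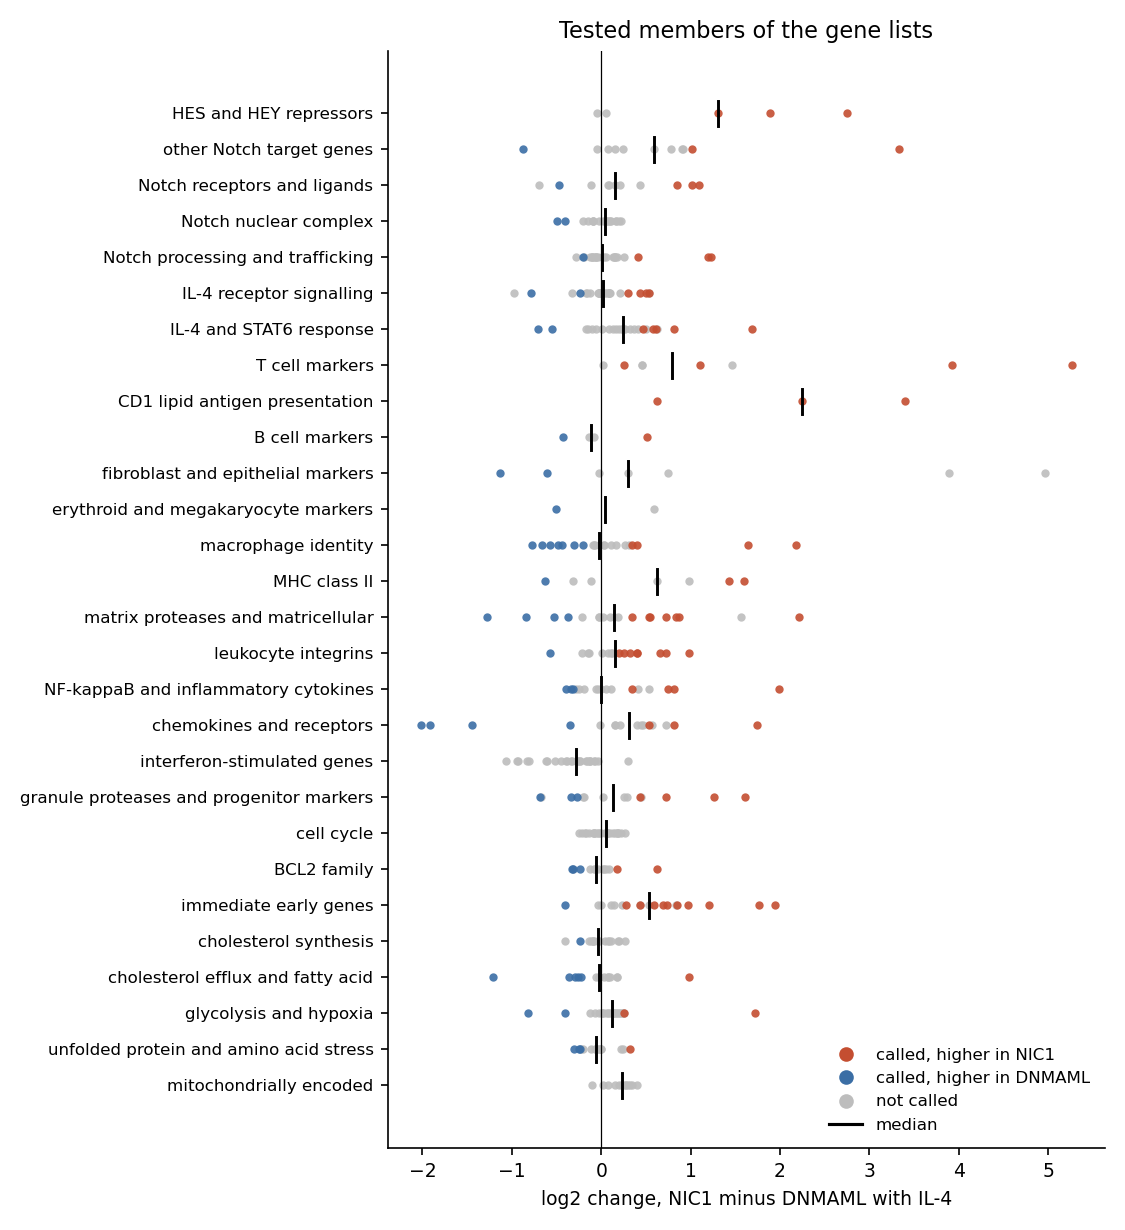
Log2 change between NIC1 and DNMAML with IL-4 for every tested member of 28 gene lists, with called members in colour and the list median as a black line. The medians of the HES and HEY list (1.31) and of the CD1 list (2.25) lie to the right, and cell cycle genes stay close to 0.

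The same contrast without IL-4 used 6 other libraries. There 2082 genes were called (13.8%), 1108 higher (7.37%) and 974 lower (6.48%) in NIC1. Of the genes higher with IL-4, 722 were also higher without it, which is 65.8% of the list with IL-4 and 65.2% of the list without. Of those lower, 527 were lower in both, which is 66.2% and 54.1% of the lists. Over the 15037 genes, whose values depend on each other, the log2 changes had a Pearson r of 0.719 and a Spearman rho of 0.611, and the contrasts share constructs and experiment numbers and may share cultures. Log2 changes with and without IL-4 were 2.75 and 2.49 for HES4, 1.89 and 1.54 for HES1, 3.92 and 3.86 for CD3D, 2.21 and 2.10 for MMP7 and -1.28 in both conditions for MMP2.

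A direct test of the change with IL-4 minus the change without called no gene by edgeR, with 610 genes at an unadjusted p under 0.05. The DESeq2 Wald test called 3, with 379 under 0.05, and the fit with culture as a random effect called 6, with 1150 under 0.05. The lowest adjusted p in the edgeR test, 0.0593, was shared by EGLN3 and BCL7A, which were singled out after their values were seen. EGLN3 (also called PHD3), a prolyl hydroxylase that marks hypoxia factors for breakdown, was measured with IL-4 at 9.83, 5.21 and 9.53 CPM in NIC1 and 19.9, 8.30 and 15.7 CPM in DNMAML libraries. Its levels without the cytokine were 6.39, 5.81 and 6.24 CPM in NIC1 and 2.80, 1.68 and 3.69 CPM in DNMAML libraries. NIC1 was thus the lower construct in every experiment with IL-4 and the higher one in every experiment without. The log2 changes were -0.82 (edgeR adjusted p = 0.00762) and 1.2 (adjusted p = 0.00416), and their difference was -2.02 ± 0.324. It was the 1 gene called in opposite directions in the 2 conditions, and its call with IL-4 was lost without DNMAML replicate 1 (-0.65, adjusted p = 0.0701). BCL7A, a subunit of chromatin remodelling complexes, was measured with IL-4 at 41.7, 45.1 and 44.4 CPM in NIC1 and 22.6, 25.8 and 23.4 CPM in DNMAML libraries. Without IL-4 the levels were 28.6, 31.5 and 28.9 CPM and 24.8, 24.6 and 23.2 CPM. NIC1 was above DNMAML in both conditions, by a log2 change of 0.87 with and 0.29 without IL-4, a difference of 0.58 ± 0.0981.

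**Figure D5:**
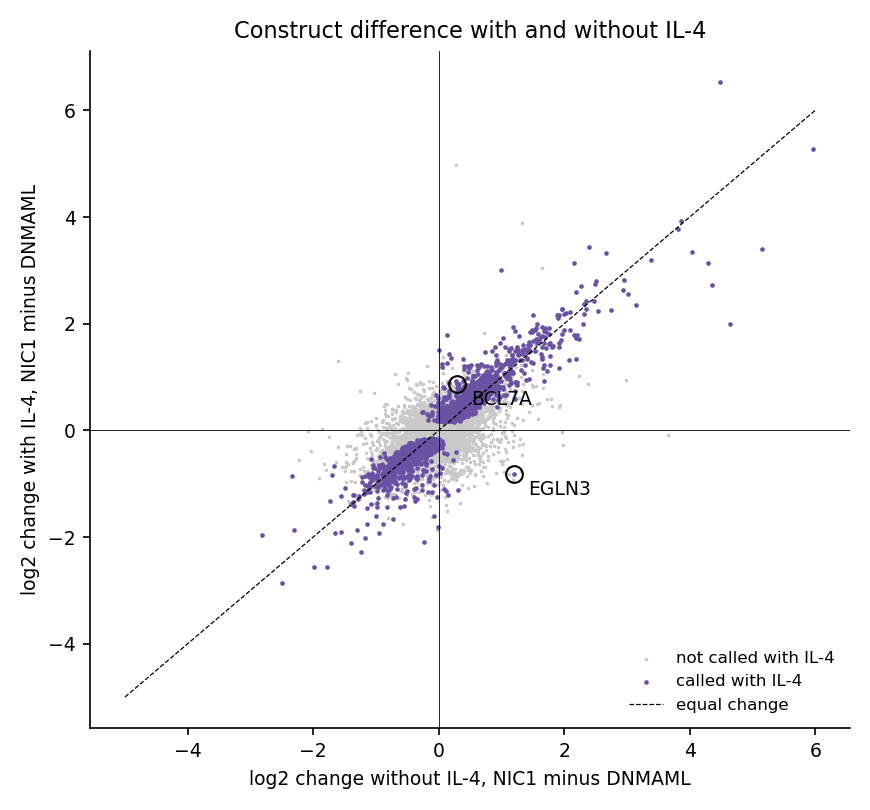
Log2 change between NIC1 and DNMAML with IL-4 (vertical) against that without IL-4 (horizontal), 1 point per gene tested, genes called with IL-4 in purple and equal change as a dashed line. Most called genes lie near the line, EGLN3 lies below it in the opposite quadrant (-0.82 and 1.2) and BCL7A above it (0.87 and 0.29).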

How the data were processed

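The deposited files hold counts of reads per gene, whole numbers made by the authors and not normalized. The submitters' processing notes list HISAT2, HTSeq, Trimmomatic, FastQC and DESeq2 and the build GRCh38.p12. Versions, settings, annotation release and strandedness are not given in the sources used. Entries naming no gene were left out. Of 58051 genes listed, 56948 had a symbol and 57447 were in GENCODE 29, the source of coordinates.

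Counts were fitted in edgeR 4.0.16 (filterByExpr, TMM scaling, glmQLFit robust, glmQLFTest) under R 4.3.3 in 1 model of all 18 libraries with 6 group means and the experiment number as a block, with a Benjamini-Hochberg adjusted p threshold of 0.05. Each SE was derived from the F statistic. The block was used because the definition of the comparison named the experiment number as pairing block. Libraries that share a number deviated together from their group means (r across genes 0.206 to 0.759 over 45 pairs, and 0.249, 0.314 and 0.621 for NIC1 with DNMAML with IL-4). The 90 pairs with unlike numbers, which centring on means of 3 libraries pulls below 0, ranged from -0.654 to 0.354, and those of NIC1 with DNMAML with IL-4 reached 0.341. The script was tested on simulated counts. Alternatives used limma 3.58.1 (voom, in the fit with culture as a random effect) and DESeq2 1.42.0, and figures Python 3.11.15 with matplotlib 3.10.9.

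Genes were named by rule: the vector genes, the 12 highest and 12 lowest changes that were called, had a symbol, reached 2 CPM in either group and showed no overlap of libraries, and up to 4 called members per list and direction, with any member of the Notch and IL-4 lists. The comparison, lists and alternatives were chosen with earlier results of these data known. One named result of the pathway lists is not reported here.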

Additional observations from a re-analysis of the deposited data

Results flagged for a closer look

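EGLN3 was set apart because it was the 1 gene called in opposite directions with and without IL-4. For this gene NIC1 lay below DNMAML in all 3 experiments with IL-4 and above it in all 3 without. The log2 change with IL-4 minus that without was -2.02 ± 0.324 (edgeR adjusted p = 0.0593 over all genes, DESeq2 adjusted p = 2.39e-05). The adjusted p was 0.00744 with culture as a random effect, 0.34 without DNMAML with IL-4 replicate 3 and IRES without IL-4 replicate 3, and 1 with no replicate block. In IRES cells EGLN3 was measured at 14.1, 6.69 and 12 CPM with and 3.63, 4.11 and 3.04 CPM without IL-4.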

How the results depend on the processing

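The experiment block mattered most. With no replicate block, 216 genes were called with IL-4 (162 higher and 54 lower, 75.0% of them higher against 58.0% with the block) and 248 without IL-4 (156 and 92), and 33 of 126 named and called genes kept their call. A fit of the 6 libraries alone called 1112 (678 and 434), a test against a fold of 1.2 called 648 (437 and 211), and leaving out both libraries with the most genes detected, DNMAML with IL-4 replicate 3 and IRES without IL-4 replicate 3, left 1255 (726 and 529). With 1 of the 6 libraries left out, the count ranged from 1166 to 1640, from 725 to 938 higher and from 441 to 702 lower. Of the 126 named and called genes, 77 kept the call in all 6 leave-outs, 101 without DNMAML replicate 3, 97 with the 6 libraries alone and 124 with culture as a random effect. For the difference between conditions, 56 genes were called with no filter on low counts (31 and 25), 3 by DESeq2 (2 and 1) and 6 with culture as a random effect (5 and 1). Other scalings, filters and tools changed the counts with IL-4 by less than 1.5 times, and 986 genes were higher and 948 lower with upper-quartile scaling. No named log2 change turned its direction past the threshold in any alternative. Genes of a few counts per library, such as CD3G, CSF2, PPP1R3A and CCR2, are limited by depth.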

Other observations

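Of 24 tested genes of glycolysis and hypoxia, ARNT2 and the hexokinase gene HK1 (log2 change 0.25, edgeR adjusted p = 0.0487) were higher in NIC1, and EGLN3 and the mitophagy receptor gene BNIP3 (-0.41, adjusted p = 0.0298) were lower, 8.33% in each direction against 7.3% and 5.29% of all genes. HK1 lost its call without NIC1 replicates 1 or 3 or DNMAML replicates 1 or 2 (adjusted p up to 0.3), and BNIP3 kept its call in 1 leave-out, that of DNMAML replicate 2 (up to 0.154 in the others). Of 17 genes of the unfolded protein and amino acid stress responses, PPP1R15A, a phosphatase subunit that restores translation, was higher (0.32, edgeR adjusted p = 0.0163), and ATF4 (-0.30, 0.0105), the chaperone gene HSP90B1 (-0.25, 0.0211) and XBP1 (-0.24, 0.0285) were lower, 5.88% and 17.6% of the list. Each of these 4 calls was lost without NIC1 replicate 1, and further ones without DNMAML replicate 1 (PPP1R15A, ATF4, XBP1), NIC1 replicate 3 (ATF4, HSP90B1, XBP1) or DNMAML replicate 3 (HSP90B1, XBP1), with adjusted p up to 0.131, 0.107, 0.158 and 0.163 in the order named. Of 17 genes of cholesterol synthesis, DHCR7 was lower (-0.24, edgeR adjusted p = 0.0499), 5.88% of the list and near the 5.29% of all genes. DHCR7 lost its call without NIC1 replicates 1 or 3 or DNMAML replicates 1 or 2 (up to 0.236). TAL1, a haematopoietic factor of the erythroid list, was lower at 14.8, 15.2 and 15.8 CPM in NIC1 against 21.4, 21.1 and 22.7 CPM in DNMAML libraries (-0.51 ± 0.13, edgeR adjusted p = 0.0116), a call lost without NIC1 replicate 3 or DNMAML replicates 1 or 2 (up to 0.0813). Of 4 tested B cell markers CD79A was higher (0.51, edgeR adjusted p = 0.0257) and FCRLA lower (-0.43, adjusted p = 0.0259), 25% of those tested in each direction. Each lost its call in 4 leave-outs, without NIC1 replicates 2 or 3 or DNMAML replicate 3 in both, and also without DNMAML replicate 2 for CD79A and NIC1 replicate 1 for FCRLA.

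Among 622 tested antisense genes 2.25% were called higher and 3.70% lower, among 505 lincRNAs 4.95% and 3.96%, and among 12923 protein-coding genes 8.02% and 5.56%.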
